A study of Mus musculus with 6 samples.

Results

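The collagen chain genes were taken as every row of the deposited count matrix whose symbol had the form Col, a type number, the letter a and a chain number. This rule found 44 genes among the 55401 rows of the matrix, and it used no measured value. The study made *Phf2* KO cells from C2C12, a line of mouse myoblasts that form multinucleated myotubes once the serum is lowered, with Cas9 and pooled guides against *Phf2*, a gene for a histone H3K9 demethylase. The *Phf2* KO cells were a pool of sorted fluorescent cells and not single clones, and the control cells, wild type in the labels, were mock cells of the same line, given the plasmid with no guide against *Phf2*. Polyadenylated RNA was sequenced from 3 control and 3 *Phf2* KO samples taken 2 d post differentiation in medium with horse serum, to compare transcription between the genotypes. The samples are wells of 1 experiment, so the p-values below measure only the spread between these samples, which may be technical, and a difference between the cell pools cannot be told apart from an effect of *Phf2*. Because the RNA is from whole cultures, fewer cells of a type and less RNA per cell cannot be told apart either.

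Collagens are secreted proteins whose chains wind around each other into a triple helix, which needs glycine at regular positions and hydroxylated prolines. Fibrillar types build the fibrils of tendon, skin and bone, type IV forms the sheet of basement membranes, type VI makes beaded filaments next to them, and the fibril-associated types (FACITs) sit on fibril surfaces. In skeletal muscle, type IV lines each fiber, type VI surrounds it, and types I and III fill the space between fibers, and mutations of type VI chains cause muscular dystrophy.

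The *Phf2* level was examined first. It lay between 95.5 and 104.6 CPM (TMM-scaled counts relative to library size) in the control libraries and between 37.6 and 41.1 CPM in the *Phf2* KO libraries, without overlap. These values are of RNA, and the study separately reported PHF2 protein as far lower in the *Phf2* KO myoblasts. The libraries held totals of 52526109 to 67502788 estimated counts. The labels call the cells myotubes, and each of 8 myotube markers was at 111 CPM (*Ckm*) or more in every library. These markers moved with the genotype, as 5 were lower past the threshold of an adjusted p under 0.05 and their summed level was 7753 to 9213 CPM in the control and 6220 to 7037 CPM in the *Phf2* KO libraries. Of all genes tested, 3.26% were lower past this threshold and 3.22% higher. Of 4 myoblast markers 1 was lower, *Des*, which made up most of their sum (1136 to 1256 against 930.0 to 991 CPM). *Myod1*, *Myf5* and *Pax7* did not pass (log2 fold changes of -0.18, 0.14 and 0.17). Of 7 fibroblast and tendon markers 1 was lower, *Dpt* (means of 5.93 against 3.16 CPM). By sign, 4 of the 7 rose and 3 fell. Their sum, mainly *Dcn*, was 551 to 667 against 649 to 706 CPM, and *Dcn* did not pass (log2 fold change of 0.21). Of 5 osteoblast markers 2 were tested and 1 was higher (*Runx2*, sums of 51.8 to 58.8 against 64.9 to 70.7 CPM), with *Ibsp* at 0 in all libraries. Of 5 chondrocyte markers 2 were tested and 0 passed, also 0 at an unadjusted p under 0.05 (sums of 42.6 to 57.0 against 45.3 to 48.5 CPM, mainly *Sox9*, with *Matn1* at 0). Adipocyte, endothelial, macrophage and blood markers summed to less than 1 CPM in each library, and *Plin1*, *Adgre1* and *Hbb-bs* were at 0. The part of these shifts in the collagen values was not tested.

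Collagen transcripts were abundant in these cells. Levels of different genes are compared here only as TPM, the deposited signal per transcript length. The collagen genes together had 11126, 11339 and 10577 TPM in replicates 1, 2 and 3 of the control and 11873, 11078 and 11386 TPM in those of *Phf2* KO. The groups overlapped, with a *Phf2* KO mean 1.04 times the control mean. As a share of all estimated counts, the collagen genes made up 3.49, 3.56 and 3.43% in the control and 3.74, 3.61 and 3.57% in the *Phf2* KO libraries, where the groups did not overlap, by a margin smaller than the spread within either. The summed TPM was 1.12% ± 0.0391 (SD, n = 3) of the summed level of reference genes in control cells and 1.17% ± 0.0404 in *Phf2* KO cells. Of the 44 genes, 18 had a mean of at least 10 TPM in either group.

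*Col3a1*, the chain of the type III homotrimer, stood at the top with 4801 ± 247 TPM in control cells (SD, n = 3). It was followed by both type I chains, *Col1a1* at 1634 ± 66.6 TPM and *Col1a2* at 1027 ± 11.6 TPM. Next came *Col6a1* (762 ± 76.8 TPM), *Col12a1* (582 ± 64.9 TPM), *Col5a2* (544 ± 79.8 TPM), *Col5a1* (419 ± 9.14 TPM) and *Col6a2* (377 ± 22.8 TPM), where *Col12a1* and *Col5a2* did not differ beyond their spread. *Col4a1*, *Col6a3*, *Col8a1* and *Col4a2* lay between 139 and 199 TPM in control cells, and the other 6 of the 18, *Col18a1*, *Col16a1*, *Col5a3*, *Col4a5*, *Col8a2* and *Col11a1*, between 12.8 and 45.8 TPM. The remaining 26 genes, among them *Col2a1* and *Col10a1* of cartilage and *Col7a1* of the skin's anchoring fibrils, were below 10 TPM in both groups.

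**Figure D1:**
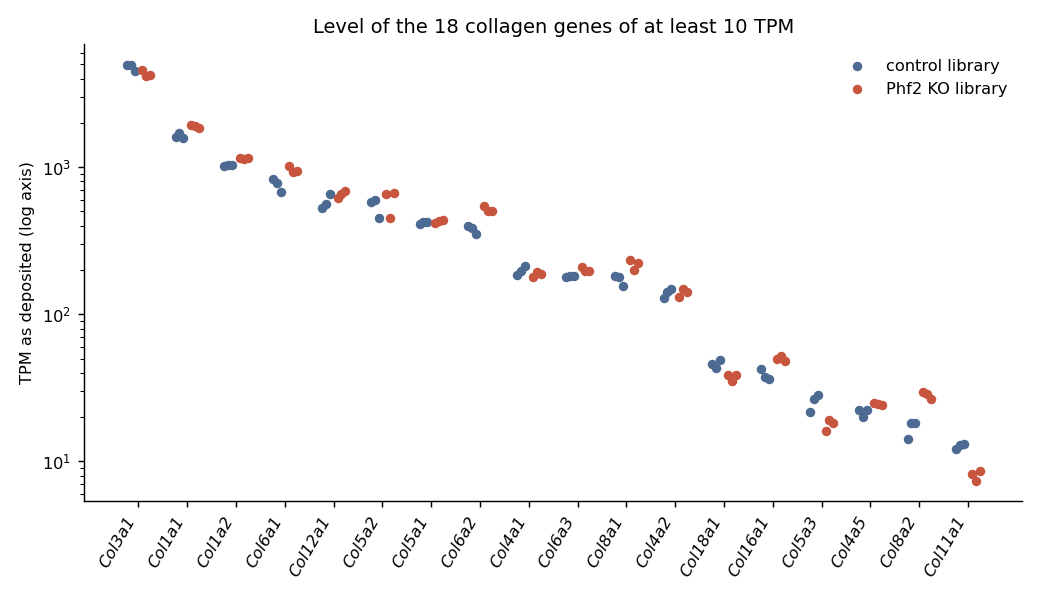
Level of the 18 collagen genes of at least 10 TPM in each library, on a log axis (TPM as deposited, control libraries blue and Phf2 KO libraries red, genes ordered by level). The levels span from 8.06 TPM for Col11a1 in Phf2 KO cells to 4801 TPM for Col3a1 in control cells (means of 3 libraries).

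In *Phf2* KO cells the collagen genes moved in both directions. Of the 37 genes that passed the filter on low counts, 13 changed with an adjusted p under 0.05 in edgeR's quasi-likelihood test (Benjamini-Hochberg adjustment over 17310 genes), 10 of them upward and 3 downward. The number depended on single libraries and on the test. Without 1 library, 5 to 9 collagen genes were higher (5 without control replicate 2 or *Phf2* KO replicate 2, 6 without control replicate 1 or *Phf2* KO replicate 1 or 3) and 2 to 4 lower, and limma on log2(TPM + 1) left 2 higher and 1 lower. The 13 are 35.1% of the collagen genes tested, against 6.48% of all genes tested, 3.22% higher and 3.26% lower. Among the 18 genes of at least 10 TPM, 8 were higher and 3 were lower (61.1%), against 9.7% of all genes of that level, 5.17% higher and 4.53% lower. The collagen genes were listed with earlier results of these data known, and no test of the list was made.

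The groups of 3 libraries did not overlap for 16 of the 37 genes, where 25.1% of all genes tested showed this. The median log2 fold change of the 37 genes, which moved in both directions, was 0.02, beside -0.001 for all genes tested. For the 18 genes of at least 10 TPM the median was 0.12, with values between -0.67 and 0.72. For the 19 tested genes below that level it was -0.02. By class, 3 fibrillar genes rose and 2 fell among 10 tested, 3 type VI genes rose among 5, 2 FACIT genes rose among 7, and 1 gene fell among the 6 of basement membranes. Of 3 transmembrane genes 0 passed, also 0 at an unadjusted p under 0.05 and 0 with exactTest of edgeR, DESeq2 and limma-voom, and 2 genes rose among the 6 tested that fit none of these classes, both of them type VIII chains. The median log2 fold change was 0.01 for fibrillar genes, 0.30 for type VI, 0.41 for FACITs, -0.05 for basement membrane genes, -0.33 for transmembrane genes and -0.03 for the others. These medians rest on few genes, many of low level. The FACIT median is the value of *Col16a1*, and apart from it and *Col12a1* (0.12) the tested FACITs were at no more than 2.72 CPM. That of transmembrane genes is the value of *Col17a1* (at most 0.635 CPM, standard error 0.65).

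**Figure D2:**
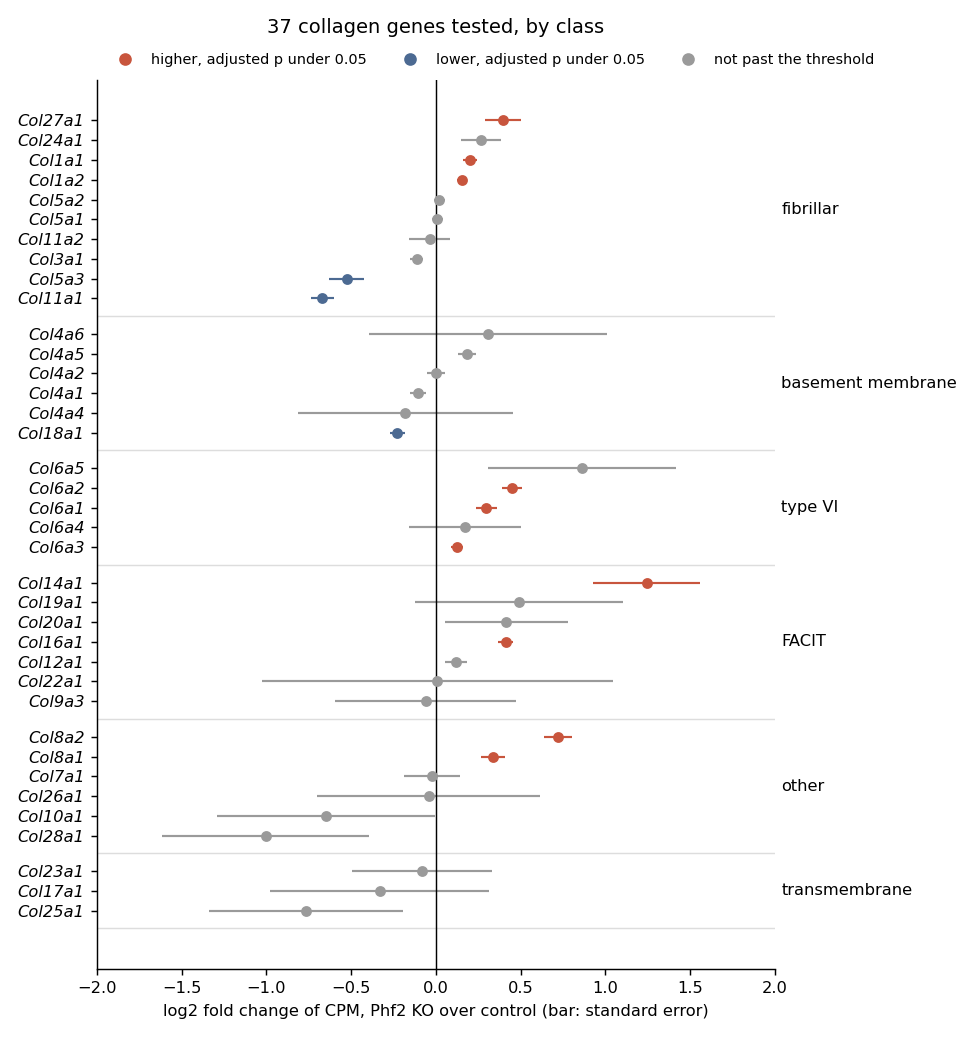
Log2 fold change of CPM between Phf2 KO and control libraries for the 37 collagen genes tested, grouped by class, with the standard error as a bar. Red and blue points passed an adjusted p under 0.05 (10 higher, 3 lower), and the widest bars belong to genes of low level.

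The fibrillar class held the most abundant genes and changes of both signs. *Col1a1* (ENSMUSG00000001506, chromosome 11, 94936224 to 94953042), the alpha-1 chain of type I collagen, was at 4414, 4722 and 4325 CPM in replicates 1, 2 and 3 of the control and 5408, 5207 and 4886 CPM in those of *Phf2* KO, the order used for all genes below. Every *Phf2* KO library was above every control library, with a log2 fold change of 0.20 (adjusted p = 0.0118, standard error 0.042). All adjusted p-values of genes here are from this quasi-likelihood test of edgeR. *Col1a2* (ENSMUSG00000029661, chromosome 6, 4504814 to 4541544), its partner chain, was at 5684, 5805 and 5708 CPM in the control and 6539.6, 6386 and 6205 CPM in the *Phf2* KO libraries. The groups were again apart, by 0.15 (adjusted p = 0.00625, standard error 0.029). *Col27a1* (ENSMUSG00000045672, chromosome 4, 63214004 to 63334991), a fibrillar chain of cartilage, was at 15.1, 14.1 and 18.9 CPM and 20.5, 22.5 and 20.4 CPM, also without overlap. Its log2 fold change was 0.40 (adjusted p = 0.0411, standard error 0.11), and the ratio of the group means was 1.32 by CPM and 2.01 by TPM.

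The fall within the fibrillar class was in a pair of minor chains. *Col11a1* (ENSMUSG00000027966, chromosome 3, 114030540 to 114220718), whose product is incorporated in heterotypic fibrils and helps to set their diameter, was at 43.1, 46.1 and 46.7 CPM in the control and 29.3, 26.3 and 29.6 CPM in the *Phf2* KO libraries. The 3 *Phf2* KO values were all far below the lowest control value, and the log2 fold change was -0.67 (adjusted p = 6.42e-05, standard error 0.068). *Col5a3* (ENSMUSG00000004098, chromosome 9, 20770050 to 20815067), the least common type V chain, was at 61.6, 75.5 and 80.3 CPM and 45.7, 54.9 and 50.4 CPM. The groups did not overlap, although control replicate 1 was close to the highest *Phf2* KO library, and the log2 fold change was -0.53 (adjusted p = 0.0235, standard error 0.11). The promoter windows of both lower fibrillar genes are shown for comparison with those of the genes that rose. Each is the 250 bases upstream of the RefSeq transcript start (GRCm38.p6), on the strand of the gene, and capitals mark matches of 4 motifs on either strand. The E-box was searched as CANNTG and the TATA box as TATAAA. The letters CCAAT were taken on the printed strand or, as ATTGG, for the other strand. For the GC box these were GGGCGG or, likewise, its reverse complement CCGCCC. The *Col11a1* window lies at chr3:114030290-114030539 on the plus strand and the *Col5a3* window at chr9:20815068-20815317 on the minus strand.
Col11a1: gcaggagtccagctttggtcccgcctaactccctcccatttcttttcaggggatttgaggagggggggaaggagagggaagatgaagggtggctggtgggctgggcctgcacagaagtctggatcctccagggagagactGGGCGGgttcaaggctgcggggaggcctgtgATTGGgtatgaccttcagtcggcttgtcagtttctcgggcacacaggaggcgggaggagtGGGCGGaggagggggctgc
Col5a3: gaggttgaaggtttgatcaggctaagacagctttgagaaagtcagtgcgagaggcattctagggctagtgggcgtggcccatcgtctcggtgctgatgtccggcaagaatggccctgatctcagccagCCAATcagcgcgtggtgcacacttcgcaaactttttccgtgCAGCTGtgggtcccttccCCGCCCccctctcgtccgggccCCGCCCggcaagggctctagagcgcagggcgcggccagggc

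Both windows hold 1 CCAAT and 2 GC boxes, and only that of *Col5a3* holds an E-box. Neither window holds TATAAA.

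The other fibrillar genes did not pass the threshold. *Col3a1* (ENSMUSG00000026043, chromosome 1, 45311538 to 45349706), the most abundant collagen gene, was at 12687, 12884 and 11753 CPM in the control and 12058, 11193 and 11247 CPM in the *Phf2* KO libraries. *Phf2* KO replicate 1 was above control replicate 3, so the groups overlapped, and the log2 fold change was -0.11 (adjusted p = 0.116, standard error 0.039). Without control replicate 3, the adjusted p of *Col3a1* was 0.0132 at a log2 fold change of -0.16. An exon of the gene *Gm47302* overlaps 141 bases of *Col3a1* exons on the same strand.

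*Col5a1* was between 1709 and 1797 CPM over the 6 libraries, with a log2 fold change of 0.01 (adjusted p = 0.937, standard error 0.033), and genes on the opposite strand overlap 212 bases of its exons. For *Col5a2*, the range was 1945 to 2039 CPM with 0.02 (adjusted p = 0.802, standard error 0.032). These are the common chains of type V collagen, which initiates type I fibrils, and the third type V chain, *Col5a3*, was the one that fell. Of low level were *Col24a1* (11.8, 10.4 and 11.6 against 15.8, 12.6 and 12.2 CPM, no overlap, adjusted p = 0.239) and *Col11a2* (7.86, 9.50 and 8.77 against 8.26, 8.78 and 8.45 CPM, adjusted p = 0.922). *Col2a1*, the main collagen of cartilage, was at no more than 0.177 CPM and was not tested. The calls of *Col1a1*, *Col1a2*, *Col27a1* and *Col5a3* depended on the test and on single libraries. With exactTest of edgeR the adjusted p was 0.0662 for *Col1a1* and 0.144 for *Col1a2*, with limma-voom it was 0.0601 for *Col27a1*, and without a filter on low counts 0.0673 for *Col5a3*. The limma fits of TPM called none of the 4 (0.0608 to 0.111). Without 1 library, *Col1a1* was above the threshold in 3 of 6 fits (0.118 without control replicate 1, 0.0592 without control replicate 3 and 0.0703 without *Phf2* KO replicate 2), *Col1a2* in 1 (0.0665 without *Phf2* KO replicate 2), *Col27a1* in all but the fit without control replicate 3 (0.0781 to 0.199) and *Col5a3* in 3 (0.0979 without control replicate 2, 0.0782 and 0.141 without *Phf2* KO replicates 1 and 3).

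The 3 type VI genes that were abundant in these cells all rose in *Phf2* KO cells. Together the type VI genes had 1399, 1352 and 1209.9 TPM in the control and 1771, 1622 and 1646 TPM in the *Phf2* KO libraries. The *Phf2* KO mean was 1.27 times the control mean, and the groups did not overlap. *Col6a2* (ENSMUSG00000020241, chromosome 10, 76595762 to 76623630), the alpha-2 chain, was at 735, 717 and 648 CPM in the control and 1030.5, 931 and 905 CPM in the *Phf2* KO libraries. It had the largest change of the abundant type VI chains, with a log2 fold change of 0.45 (adjusted p = 7.73e-04, standard error 0.057). *Col6a1* (ENSMUSG00000001119, chromosome 10, 76708792 to 76726168), the alpha-1 chain, was at 1571, 1499.7 and 1364 CPM and 1965, 1749.9 and 1737 CPM. Its groups were also apart, by a log2 fold change of 0.30 (adjusted p = 0.0209, standard error 0.061). *Col6a3* (ENSMUSG00000048126, chromosome 1, 90765923 to 90843971), the long alpha-3 chain that completes the trimer, was at 1036, 1061 and 1024 CPM and 1154, 1134 and 1118 CPM. Its libraries were close together within each group and did not overlap between groups, at a log2 fold change of 0.13 (adjusted p = 0.0436, standard error 0.034). It was the nearest to the threshold among the 13, and was above it with exactTest (adjusted p = 0.285), upper-quartile factors (0.0724), no filter on low counts (0.0597) and the limma fits of TPM (0.171 and 0.172).

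*Col6a1* and *Col6a2* are neighbours on chromosome 10, on the same strand with 85161 bp between them, whereas *Col6a3* is on chromosome 1. The promoter windows of *Col6a2* (chr10:76623631-76623880, minus strand) and *Col6a3* (chr1:90843972-90844221, minus strand) are given to set side by side chains that assemble in the same trimer.
Col6a2: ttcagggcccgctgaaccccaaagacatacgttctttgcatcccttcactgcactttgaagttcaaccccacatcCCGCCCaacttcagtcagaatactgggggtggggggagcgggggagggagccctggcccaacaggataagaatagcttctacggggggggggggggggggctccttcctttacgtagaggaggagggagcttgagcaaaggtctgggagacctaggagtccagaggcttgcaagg
Col6a3: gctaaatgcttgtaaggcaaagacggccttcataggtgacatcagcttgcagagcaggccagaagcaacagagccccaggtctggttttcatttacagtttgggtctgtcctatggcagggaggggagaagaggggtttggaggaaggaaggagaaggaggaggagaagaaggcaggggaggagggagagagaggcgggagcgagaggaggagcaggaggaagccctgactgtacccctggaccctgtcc

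The *Col6a2* window holds 1 GC box and that of *Col6a3* none of the 4 motifs. *Col6a1* was above the threshold without control replicate 2 (adjusted p = 0.067) and without *Phf2* KO replicate 3 (0.102), and *Col6a3* in each fit without 1 library but that without *Phf2* KO replicate 3 (0.0723 to 0.161). For *Col6a2*, the fits without 1 library gave an adjusted p of at most 0.00591. The genes of the alternative alpha-3-like chains were barely expressed. *Col6a4* and *Col6a5* were at no more than 1.64 and 0.781 CPM and did not pass, and *Col6a6* was at 0.0687 CPM or less and was not tested.

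Among the FACITs, *Col16a1* (ENSMUSG00000040690, chromosome 4, 130047840 to 130099283), whose product associates with fibrils and with fibrillin microfibrils, was at 113, 113 and 108 CPM in the control and 152, 151 and 141 CPM in the *Phf2* KO libraries. The groups were separated by more than the spread within either, with a log2 fold change of 0.41 (adjusted p = 1.31e-04, standard error 0.046), and the adjusted p was at most 0.00242 in the fits without 1 library. *Col14a1* (ENSMUSG00000022371, chromosome 15, 55307750 to 55520803), a regulator of fibril growth, was at 0.754, 0.687 and 1.44 CPM and 2.72, 2.28 and 1.85 CPM. The groups did not overlap, and the log2 fold change, the largest of the 13, was 1.24 (adjusted p = 0.0308, standard error 0.32) on few counts. Without 1 library it was past the threshold only in the fit without control replicate 3, with an adjusted p of 0.0638 to 0.148 in the other 5, and limma-voom gave 0.0507. *Col12a1*, the FACIT with the highest level, was at 3135, 3322 and 3766 CPM and 3571, 3737 and 3801 CPM. The groups overlapped, at a log2 fold change of 0.12 (adjusted p = 0.370, standard error 0.064), and without control replicate 3 the adjusted p was 0.00449. *Col9a3*, *Col19a1*, *Col20a1* and *Col22a1* were at no more than 1.16 CPM and did not pass, and *Col9a1* and *Col9a2* were not tested.

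The largest rise among collagen genes of at least 10 TPM was in type VIII, a short-chain network collagen of blood vessel walls and the cornea. *Col8a2* (ENSMUSG00000056174, chromosome 4, 126286793 to 126314330), its alpha-2 chain, was at 29.8, 36.9 and 37.1 CPM in the control and 59.8, 57.9 and 53.4 CPM in the *Phf2* KO libraries. The mean rose from 34.6 ± 4.17 to 57.0 ± 3.27 CPM (SD, n = 3), with a log2 fold change of 0.72 (adjusted p = 2.42e-04, standard error 0.083). *Col8a1* (ENSMUSG00000068196, chromosome 16, 57624258 to 57754737), the alpha-1 chain, was at 441, 432 and 372 CPM and 561, 487 and 524 CPM. The groups did not overlap, and the log2 fold change was 0.34 (adjusted p = 0.0234, standard error 0.071). By TPM, the only scale on which the chains can be compared, *Col8a1* exceeded *Col8a2* in control cells (172 ± 14.6 against 17.0 ± 2.35 TPM) and in *Phf2* KO cells (218 ± 17.0 against 28.3 ± 1.47 TPM). *Col8a1* was above the threshold without control replicate 2 (adjusted p = 0.0531), *Phf2* KO replicate 1 (0.0605) and *Phf2* KO replicate 3 (0.132), whereas the largest value for *Col8a2* was 0.00321.

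The windows of the type VIII pair and of *Col16a1* are printed because *Col8a2* and *Col16a1* rose in each fit without 1 library. *Col8a1* is at chr16:57754738-57754987 on the minus strand, *Col8a2* at chr4:126286544-126286793 and *Col16a1* at chr4:130047590-130047839, both on the plus strand.
Col8a1: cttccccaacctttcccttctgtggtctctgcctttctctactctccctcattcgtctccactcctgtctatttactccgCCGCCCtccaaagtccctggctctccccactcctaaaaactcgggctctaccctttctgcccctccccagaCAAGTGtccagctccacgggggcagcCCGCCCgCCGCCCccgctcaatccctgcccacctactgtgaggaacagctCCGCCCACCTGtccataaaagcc
Col8a2: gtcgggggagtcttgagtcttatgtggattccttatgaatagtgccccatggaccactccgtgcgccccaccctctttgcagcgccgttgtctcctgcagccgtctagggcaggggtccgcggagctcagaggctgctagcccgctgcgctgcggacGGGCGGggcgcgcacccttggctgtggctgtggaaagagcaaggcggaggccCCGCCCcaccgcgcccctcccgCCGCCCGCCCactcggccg
Col16a1: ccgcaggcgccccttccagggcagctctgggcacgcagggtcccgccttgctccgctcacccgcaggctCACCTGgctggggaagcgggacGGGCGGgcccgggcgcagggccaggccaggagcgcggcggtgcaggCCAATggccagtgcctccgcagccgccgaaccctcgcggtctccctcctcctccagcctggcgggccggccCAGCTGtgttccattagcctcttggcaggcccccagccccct

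Both type VIII windows hold 4 GC boxes, counted with overlaps, and only that of *Col8a1* also holds E-boxes (2). The *Col16a1* window holds 1 GC box, 1 CCAAT and 2 E-boxes. Windows were found for 35 of the 44 collagen genes (38 windows), and 22 of these windows hold a GC box (57.9%, against 32.7% of 32851 windows of all genes). E-boxes were in 19 (50.0%, against 66.2%), CCAAT in 13 (34.2%, against 33.8%) and TATAAA in 5 (13.2%, against 12.4%). The collagen genes past the threshold had 13 windows from 11 genes, with none for *Col1a1* and *Col14a1*, and 10 of these windows hold a GC box, 5 an E-box, 5 CCAAT and 0 TATAAA. The share of G and C had a median of 52.4% over all windows and lay between 57.2% (*Col6a3*) and 75.6% (*Col16a1*) in the windows printed here. The part of this base composition in the motif shares was not tested. These are matches of letters, not binding sites, and no test was made.

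Among the genes of basement membrane collagens, 1 of 6 tested passed the threshold. *Col4a1* and *Col4a2*, the chains of the common type IV network, lie head to head on chromosome 8 with exons that overlap by 22 bp on opposite strands. *Col4a1* was at 570.0, 610.5 and 647 CPM in the control and 553, 590.2 and 556 CPM in the *Phf2* KO libraries, with overlap and a log2 fold change of -0.11 (adjusted p = 0.250, standard error 0.048). *Col4a2* was at 384, 423 and 441 CPM and 399, 441 and 409 CPM, with group means of 416 and 416 CPM (adjusted p = 0.999). *Col4a5* (ENSMUSG00000031274, chromosome X, 141475385 to 141689234), a chain of the specialised type IV network, was at 68.7, 62.8 and 68.4 CPM and 78.4, 75.8 and 72.7 CPM. This gene was the nearest to the threshold among those that did not pass it, with groups that did not overlap and a log2 fold change of 0.18 (adjusted p = 0.0600, standard error 0.053).

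Its head-to-head neighbour *Col4a6*, 1308 bp away on chromosome X, was at no more than 0.358 CPM. *Col4a4* reached 0.368 CPM, and *Col4a3*, at 0.228 CPM or less, was not tested. *Col18a1* (ENSMUSG00000001435, chromosome 10, 77052178 to 77166548), a basement membrane multiplexin and the source of endostatin, was the 1 gene of the class that fell. It was at 116, 110.1 and 116 CPM in the control and 100.4, 94.4 and 97.3 CPM in the *Phf2* KO libraries, without overlap, and the log2 fold change was -0.23 (adjusted p = 0.00773, standard error 0.045). Without *Phf2* KO replicate 2 its adjusted p was 0.0551. *Col15a1*, the other multiplexin, had a count of 0 in all 6 libraries.

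The transmembrane collagens and most of the remaining types were at low levels. *Col17a1*, *Col23a1* and *Col25a1* were at no more than 1.44 CPM in any library, and *Col13a1* at no more than 0.123 CPM. *Col25a1* did not overlap between groups (0.351, 0.498 and 0.361 against 0.325, 0.190 and 0.192 CPM), at an adjusted p of 0.526. *Col7a1* was between 5.12 and 7.35 CPM, with an adjusted p of 0.967. *Col10a1*, *Col26a1* and *Col28a1* stayed below 1 CPM and did not pass. Intervals of the fold change are approximate 95% intervals from the standard error and a normal distribution, somewhat too narrow for 3 libraries a group. The interval was 0.788 to 1.23 for *Col7a1*, which does not reach the fold change of *Col8a2* (1.65), and 0.538 to 1.66 for *Col23a1*. On the log2 scale, the interval was wider than for *Col23a1* in the other tested genes of these types.

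**Figure D3:**
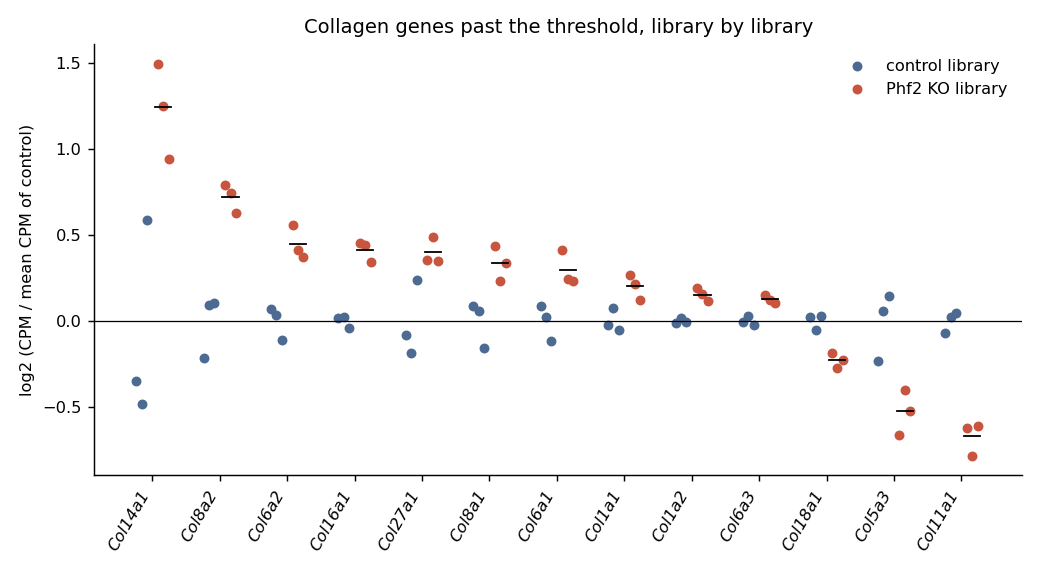
Log2 ratio of CPM to the control mean in each library for the 13 collagen genes past the threshold (blue, control; red, Phf2 KO; the line marks the Phf2 KO mean). The 3 Phf2 KO libraries lie on 1 side of the 3 control libraries for every gene shown, and the spread is widest for Col14a1.

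The summed collagen TPM overlapped between the groups, but the shares of single collagens in it did not always do so. *Col3a1* made up 44.2, 43.8 and 42.7% of collagen TPM in the control and 38.5, 37.4 and 37.1% in the *Phf2* KO libraries, without overlap. The collagen genes other than *Col3a1* summed to 6209.6, 6369 and 6059.7 TPM in the control and 7299, 6933 and 7166 TPM in the *Phf2* KO libraries, a ratio of means of 1.15 with no overlap. The split of the sum at *Col3a1* was chosen after its values were seen. By class, the fibrillar sum was 0.994 times, the basement membrane sum 0.960 times and the FACIT sum 1.13 times the control mean, all with overlap. The transmembrane sum, of at most 0.835 TPM, was 0.868 times the control mean, also with overlap. The type VI sum was 1.27 times and the sum of the genes in none of these classes, mainly *Col8a1*, 1.30 times the control mean, both without overlap.

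Ratios within a library do not depend on its scaling and were taken for chains that assemble in the same trimer. The ratio of *Col1a1* to *Col1a2* was 1.58, 1.65 and 1.53 in the control and 1.69, 1.66 and 1.60 in the *Phf2* KO libraries by TPM. The groups overlapped, although the *Phf2* KO library had the higher ratio in each pair of the same replicate number. The ratio of *Col6a1* to *Col6a2* was 2.09, 2.04 and 1.93 against 1.86, 1.84 and 1.88, lower in all *Phf2* KO libraries. For *Col6a3* to *Col6a1*, the ratio was 0.216, 0.233 and 0.268 against 0.208, 0.212 and 0.210, also lower without overlap. Of the abundant type VI chains, *Col6a2* had the largest and *Col6a3* the smallest log2 fold change.

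The ratio of *Col4a1* to *Col4a2* was 1.45, 1.41 and 1.43 in the control and 1.35, 1.31 and 1.32 in the *Phf2* KO libraries. It was lower in all *Phf2* KO libraries, with a ratio of means of 0.931, although neither gene passed the threshold on its own. For *Col5a1* to *Col5a2*, the groups overlapped (0.7001, 0.711 and 0.937 against 0.634, 0.946 and 0.648). The *Col5a2* TPM itself varied from 453 to 673 over libraries in which its CPM lay between 1945 and 2039. The ratio of *Col3a1* to *Col1a1*, chosen after its values were seen, was 3.06, 2.91 and 2.85 against 2.35, 2.18 and 2.30, without overlap. These ratios were given no test, since 3 libraries against 3 cannot give an exact permutation p under 0.1. The same pairs overlapped, or did not, when CPM was used in place of TPM.

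**Figure D4:**
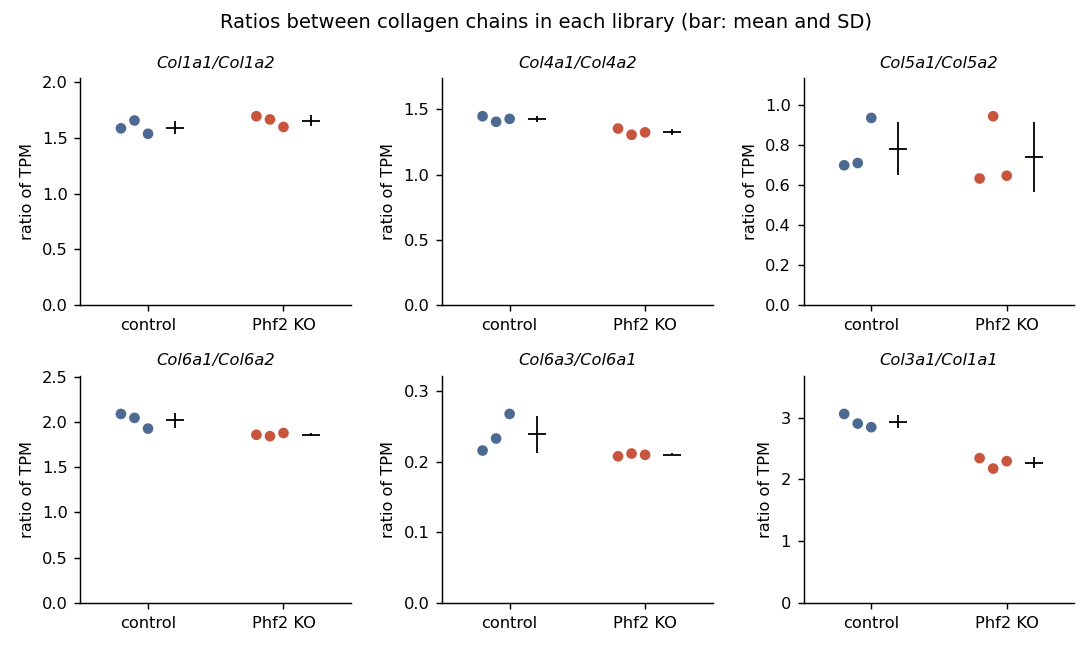
Ratio of TPM between collagen chains in each library, control on the left and Phf2 KO on the right of each panel, with the mean and SD of 3 libraries as a cross. The Col4a1/Col4a2, Col6a1/Col6a2, Col6a3/Col6a1 and Col3a1/Col1a1 ratios are lower in all Phf2 KO libraries, and the other 2 overlap.

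The genes that make collagen competent for secretion and assembly were read from the same fit. Of 39 listed genes of collagen biosynthesis, 36 were tested, and 3 rose and 4 fell past the threshold (19.4%, against 6.48% of all genes tested), and the median log2 fold change was -0.0003. *P4ha3*, a catalytic subunit of prolyl 4-hydroxylase, was at 43.0, 40.1 and 41.6 CPM in the control and 63.9, 54.4 and 56.6 CPM in the *Phf2* KO libraries. It rose by a log2 fold change of 0.49 (adjusted p = 5.82e-04, standard error 0.066), while the subunit genes *P4ha1* and *P4ha2* did not pass (log2 fold changes of -0.08 and -0.10). *Lox*, the oxidase that starts collagen cross-links, was at 1604, 1460.3 and 1489 CPM and 1941, 1763 and 1819.8 CPM. The groups did not overlap, at 0.28 (adjusted p = 0.00187, standard error 0.044). The third gene that rose was *Fkbp10*, for a prolyl isomerase of the endoplasmic reticulum, with a log2 fold change of 0.17 (adjusted p = 0.0328, standard error 0.043), which passed only without *Phf2* KO replicate 3 among the fits without 1 library (0.0589 to 0.136 in the others) and did not with exactTest (0.116).

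Lower genes included a pair of procollagen proteinases. *Adamts14*, an N-propeptidase, was at 78.7, 88.3 and 70.0 CPM in the control and 60.6, 58.5 and 57.0 CPM in the *Phf2* KO libraries, without overlap, and the log2 fold change was -0.43 (adjusted p = 0.00402, standard error 0.073). *Tll1*, of the C-propeptidase family, was of low level, at 2.45, 3.35 and 2.01 and 1.12, 1.22 and 1.51 CPM, with -1.02 (adjusted p = 0.0319, standard error 0.26). *Tmem38b*, a cation channel of the endoplasmic reticulum, was lower too, at -0.35 (adjusted p = 0.00822, standard error 0.070). The last of the 4, *Loxl2*, another cross-linking oxidase, had -0.30 (adjusted p = 0.0497, standard error 0.083). *Loxl2* was above the threshold in every fit without 1 library (0.053 to 0.16), in the fit that blocked on replicate number (0.0557), with exactTest (0.0544), with limma-voom (0.0639) and with library size alone (0.0521). *Tll1* passed without 1 library only in the fit without control replicate 3 (0.0643 to 0.189 in the others) and not with limma-voom (0.072), and *Tmem38b* was above the threshold without control replicate 2 (0.059) and without *Phf2* KO replicate 2 (0.0545).

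The main proteinases *Bmp1* and *Adamts2* had log2 fold changes of 0.05 and 0.04 and did not pass. *Serpinh1*, the collagen chaperone HSP47, was at 1333, 1373 and 1337 CPM in the control and 1394, 1358 and 1277 CPM in the *Phf2* KO libraries, with overlap and an adjusted p of 0.972. *Colgalt2*, *Adamts3* and *Tll2* were not tested. The tested genes of the list that are not named here did not pass the threshold.

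Of 11 genes for collagen receptors, 8 were tested, 2 were higher and 1 was lower (37.5%, against 6.48% of all genes tested). *Ddr2*, a receptor tyrosine kinase for fibrillar collagen, was at 401, 403 and 398 CPM in the control and 502, 449.9 and 490.0 CPM in the *Phf2* KO libraries. It rose without overlap by a log2 fold change of 0.26 (adjusted p = 0.00293, standard error 0.045). *Itga11*, the integrin subunit for type I collagen, was at 38.2, 43.2 and 43.2 CPM and 49.6, 50.6 and 50.7 CPM. Its log2 fold change was 0.28 (adjusted p = 0.0156, standard error 0.062), but the adjusted p was 0.0646 to 0.0688 without control replicate 1, *Phf2* KO replicate 2 or *Phf2* KO replicate 3. *Adgrg1*, an adhesion G protein-coupled receptor that binds type III collagen, was at 16.6, 18.9 and 18.8 CPM and 7.45, 11.96 and 10.9 CPM. The *Phf2* KO values were all below the control values, at a log2 fold change of -0.84 (adjusted p = 0.00718, standard error 0.15). *Itga10* had -0.52 (adjusted p = 0.0610, standard error 0.15), just outside the threshold, and *Itgb1*, *Itga1*, *Mrc2* and *Ddr1* did not pass. For *Ddr1*, the direction differed between the scales without overlap on either, with a log2 fold change of CPM of -0.14 (adjusted p = 0.105) but means of 58.2 ± 1.62 TPM in control and 70.4 ± 1.88 TPM in *Phf2* KO cells (SD, n = 3). *Itga2* was not tested, nor were *Gp6* and *Lair1*, receptors of blood cells with a count of 0 in all libraries.

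**Figure D5:**
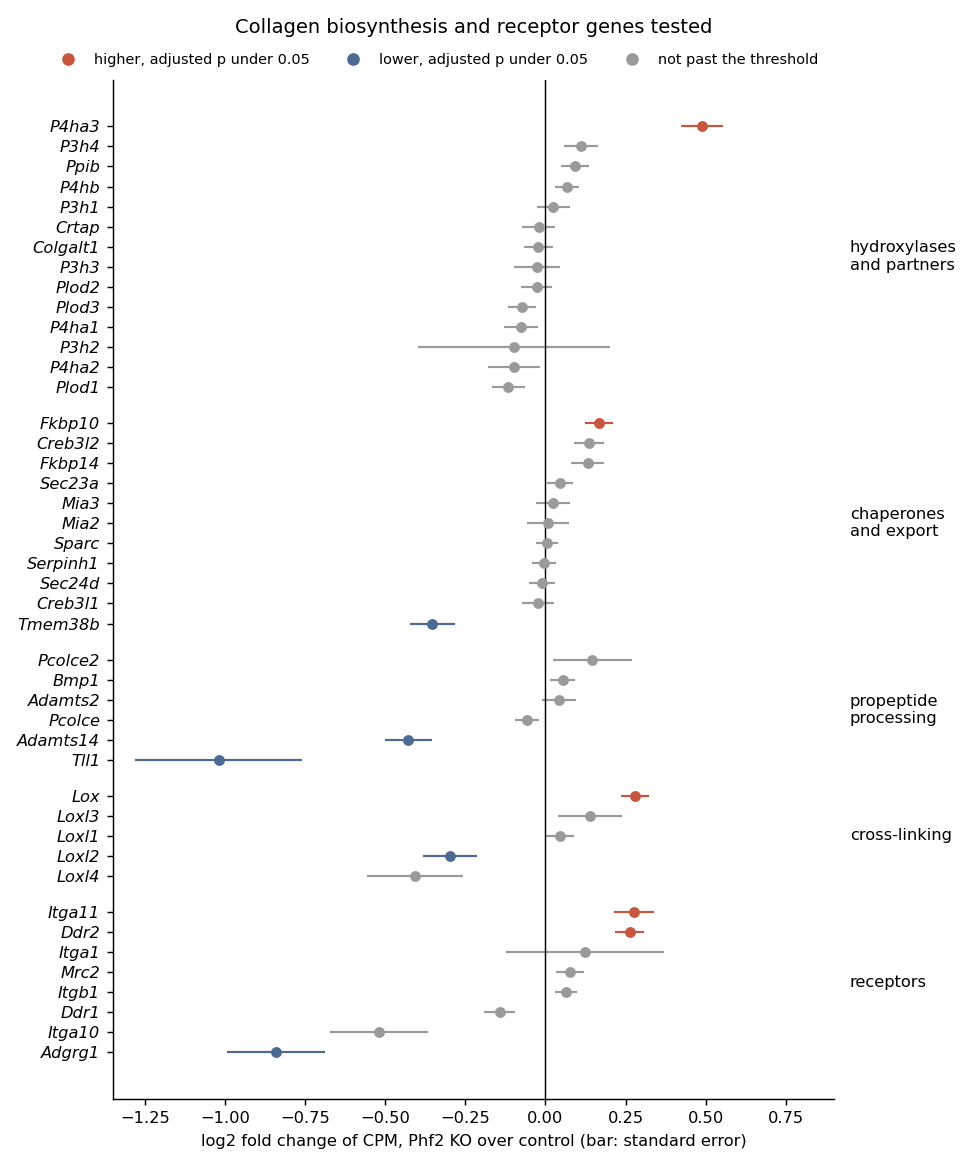
Log2 fold change of CPM between Phf2 KO and control libraries for 36 genes of collagen biosynthesis and 8 receptor genes, grouped by role, with the standard error as a bar. Red points (5 genes) were higher and blue points (5 genes) lower with an adjusted p under 0.05, and most genes lie near 0.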

How the data were processed

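RNA was sequenced from 3 control and 3 *Phf2* KO samples of C2C12 cells 2 d post differentiation. Alignment by the authors was to mm10, with HISAT2, and gene counts came from StringTie. Versions, the annotation and the strand setting of the counting are not given in the sources used here. The deposited matrix holds StringTie's estimated counts as whole numbers, unscaled. A median of 75.0 covered bases per count shows that they are not tallies of reads. The paired reads of the study were longer than this, so a read pair adds several counts. Library totals and the filter's minimum count of 10 therefore stand for fewer read pairs than their numbers state. The alternative with counts divided by 4 was run for this reason. The deposited TPM are a signal that the authors scaled per transcript length within each library, and only rows that carry a reference gene were read. From the deposited coverage, the unit of the counts was worked out. Totals were 52526109 to 67502788 estimated counts per library.

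The analysis used edgeR 4.0.16 in R 4.3.3: filterByExpr (minimum count 10), TMM, and the quasi-likelihood test with robust dispersions and Benjamini-Hochberg adjustment over 17310 genes, at a threshold of 0.05 without a limit on the fold change (common biological coefficient of variation 0.135, prior count 0.125). On simulated data for this comparison (16899 genes), the test recovered 54% of the genes set to a 1.5-fold change and 63% at a 2-fold change, with 8 unchanged genes among its 125 calls. The changed genes were drawn at random from genes of all levels. Most collagen genes past the threshold changed by less than 1.5-fold, so these shares do not give the power for them. Samples were grouped by genotype as the labels give it.

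The members and the lists of classes, biosynthesis, receptors and markers were chosen with earlier results of these data known. The genes named were *Phf2*, all collagen genes past the threshold or of at least 10 TPM, the chains of the ratios, the genes nearest to the threshold, and members of the other lists past it, and the others are given by name with a range. Genes named beyond this rule (markers, biosynthesis and receptor genes that did not pass) were chosen after their values were seen.

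The replicate numbers may pair the samples, which was not tested. Across 10923 genes, the deviations from the group mean of same-numbered libraries had correlations of 0.25, 0.236 and 0.158, and those of different numbers were at most -0.013. Deviations sum to 0 within a group, so higher values for the same numbers lower the others, and the latter are no separate evidence. The study does not describe such a pairing, so the replicate block was an alternative. The other alternatives were exactTest of edgeR (the test the authors used), DESeq2 1.42.0, limma-voom (limma 3.58.1), other size factors, other filters, counts divided by 4, limma on log2(TPM + 1) and log2(TPM + 0.1), an adjusted p under 0.01 and leaving out each library. Coordinates are those of GENCODE M21 (GRCm38), which all 44 genes matched in the deposited tables. Promoter windows are from RefSeq. Figures were drawn with Python 3.11.15.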

Additional observations from a re-analysis of the deposited data

How the results depend on the processing

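With the replicate block, all 13 collagen genes stayed past the threshold and no count of calls moved by over 1.5 times. The only named gene that lost its call with the block was *Loxl2*. Of the 13, *Col11a1*, *Col16a1*, *Col6a2* and *Col8a2* were past the threshold in each fit without 1 library, and all of these but *Col16a1* in every alternative. Collagen genes were added to the calls by DESeq2 (*Col4a5*, adjusted p = 0.0381, with 0.0504 to 0.299 in the other alternatives with all libraries) and by leaving out control replicate 3 (*Col12a1*, 0.00449, and *Col3a1*, 0.0132).

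The limma fits of TPM gave the fewest calls. With log2(TPM + 1) and log2(TPM + 0.1), 158 and 178 of all genes passed in place of 1122, and in both fits 2 collagen genes were higher and 1 lower, 1 biosynthesis gene was higher and 0 lower, and 0 receptor genes were higher and 0 lower. At an unadjusted p under 0.05, both limma fits gave 5 lower biosynthesis genes and 3 higher and 1 lower receptor genes. The cause was not tested. At an adjusted p under 0.01, 4 collagen genes were higher. Limma-voom gave 2 lower biosynthesis genes in place of 4. DESeq2, the filter of at least 1 CPM and counts divided by 4 each gave 2 lower receptor genes in place of 1.

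Without 1 library, 468 to 1039 of all genes passed, the fewest without control replicate 2. Between 5 and 9 collagen genes were higher, 5 without control replicate 2 and without *Phf2* KO replicate 2 and 6 without control replicate 1 and *Phf2* KO replicates 1 and 3. Between 2 and 4 collagen genes were lower, 1 to 3 biosynthesis genes were lower and 1 to 2 receptor genes were higher.

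The median log2 fold change of the collagen genes, 0.02, became 0.0787 with limma-voom, 0.15 with at least 1 CPM in 3 libraries, 0.12 with the replicate block, 0.14 with counts divided by 4, 0.057 and 0.117 with log2(TPM + 1) and log2(TPM + 0.1), and 0.0662 to 0.141 without 1 library. The sign of *Col4a2*, near 0, turned with DESeq2 (0.0025), the replicate block (0.00076) and the limma fits (0.0133 and 0.0134), and lay between -0.0577 and 0.0418 without 1 library. That of *Col5a1* turned with upper-quartile factors (-0.0022) and lay between -0.0124 and 0.0262 without 1 library. The directions of the other genes followed through all alternatives (*Phf2*, the collagen, biosynthesis and receptor genes past the threshold, and the other collagen genes of at least 10 TPM) did not turn. Those of the chain ratios did not either, except that of *Col5a1* to *Col5a2*, which lay between 0.819 and 1.05 without 1 library. Of the other genes named from these lists, compared by CPM and TPM only, *Ddr1*, *Col11a2*, *Col9a3*, *Col22a1*, *Col26a1* and *Serpinh1* differed in direction, with TPM ratios of 1.21, 1.70, 1.29, 0.966, 1.09 and 1.004. Including assembled loci was not run, since they carry no gene names. Few counts limit the precision for genes such as *Col22a1* (approximate 95% interval of the fold change 0.246 to 4.11), and less so for *Col24a1* (1.02 to 1.41).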
